A study of Mus musculus with 6 samples.

Results

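The genes described here are 9 genes of inhibitory neuron precursors: the homeobox genes Dlx1, Dlx2, Dlx5 and Dlx6, the non-coding RNA gene Dlx6os1, the transcription factor genes Sp9 and Lhx6, and Gad1 and Gad2. They were taken by symbol from count tables that list 24421 genes, and all 9 passed the filter on low counts that left 15906 genes to test. The members were chosen by their measured knockout and control values in these same libraries, so their genotype difference is a description, and where the fit over all genes called members, the count is given beside that of all genes and supports nothing.

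RNA-seq covered 6 libraries of cultured mouse oligodendrocyte progenitor cells (OPCs), the precursors of the glia that make myelin. In 3 libraries the cells had the genotype Prrc2bf/f; Olig2-Cre (knockout), and in 3 they had the genotype Prrc2bf/f without Cre (control). All mice therefore carried floxed Prrc2b, whose product belongs to a small family of proteins that bind RNA, and the labels name C57BL/6J pups at postnatal day 4. Cells from cortex were panned on GalC and then on O4 antibody and placed in a proliferation medium with PDGF-AA, bFGF and forskolin among its additives, while the design text of the series names brain tissue. Olig2-Cre acts in cells that express, or descend from cells that expressed, Olig2, which in the mouse forebrain include ventral progenitors as well as the oligodendrocyte lineage. A library with Olig2-Cre and no floxed Prrc2b was not analysed here, so an effect of the Cre allele cannot be told apart from Prrc2b loss. The labels do not say whether libraries came from separate animals or how many were pooled, so every error and p-value reflects the spread among these libraries alone, which may be technical.

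DLX proteins are homeodomain transcription factors that are switched on in progenitors of the ventral forebrain as these become inhibitory neurons. Dlx1 and Dlx2 form a pair of neighbouring genes and Dlx5 and Dlx6 another, and in the mouse DLX1 and DLX2 are needed for the expression of Dlx5 and Dlx6 and for the migration of inhibitory neurons. In the embryonic mouse forebrain Dlx1 and Dlx2 are also known to restrain the Olig2-dependent formation of OPCs in favour of neurons. Sp9 and Lhx6 act in subsets of these precursors, and Gad1 and Gad2 encode the enzymes that make the transmitter GABA.

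Library depth ranged between 26015604 and 28114968 gene counts. Prrc2b, the targeted gene, had 17830, 23153 and 20055 counts in knockout libraries, against 25263, 29127 and 26164 in control libraries. All knockout libraries thus lay below all control libraries. On the log2 scale the difference was -0.41 with SE 0.13 (edgeR adjusted p = 1.00), and -0.41 with SE 0.06 (edgeR adjusted p = 0.00688) once the replicate number was a block. Across all genes edgeR called 0 without the block, with 274 at an unadjusted p under 0.05, and 604 with it. More than 1 cell type was represented: 19 OPC markers summed to between 3704 and 7120 CPM (gene counts scaled to a common library size, with TMM normalisation) in knockout and between 3751 and 6147 CPM in control libraries, and 27 general neuron markers to between 6680 and 9492 CPM and between 7601 and 10199 CPM. All 19 OPC and all 27 neuron markers had counts in some library, as did 20148 of the 24421 listed genes. In bulk samples, fewer cells of a type and less RNA per cell cannot be told apart.

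Every one of the 9 genes was lower in the knockout library than in the control library of the same replicate number, in all 3 numbers. Sp9 differed most, at 64.9%, 63.2% and 66.3% of its control level in numbers 1, 2 and 3, and Gad1 least by its fitted fold change, at 92.1%, 93.9% and 84.9%. Over all tested genes 20.9% were lower and 19.6% higher in all 3 numbers. The median log2 fold change of the 9 genes was -0.35 without and -0.35 with the block, against 0.00 and 0.00 over all tested genes. For 0 of the 9 genes did the knockout group lie apart from the control group, and 3.6% of tested genes had all knockout libraries below all control libraries.

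In the edgeR quasi-likelihood test over all genes, at an adjusted p under 0.05, 0 of the 9 genes were called without the block, where 0.0% of tested genes were. With the block 5 of the 9 were called as lower, namely Dlx1, Dlx2, Dlx5, Dlx6os1 and Sp9, where 2.23% of tested genes were called as lower and 1.57% as higher. By the same count 5 were called as lower after GC correction (1.24% of genes), 4 with library totals (1.45%), 6 with DESeq2 (2.72%) and 5 with limma-voom (2.62%), and 3 without the pair numbered 3 (0.702%). Nothing is read from these counts, as the genes were proposed with this contrast known. Libraries with the same number deviated together over all genes, which is why both fits are given.

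**Figure D1:**
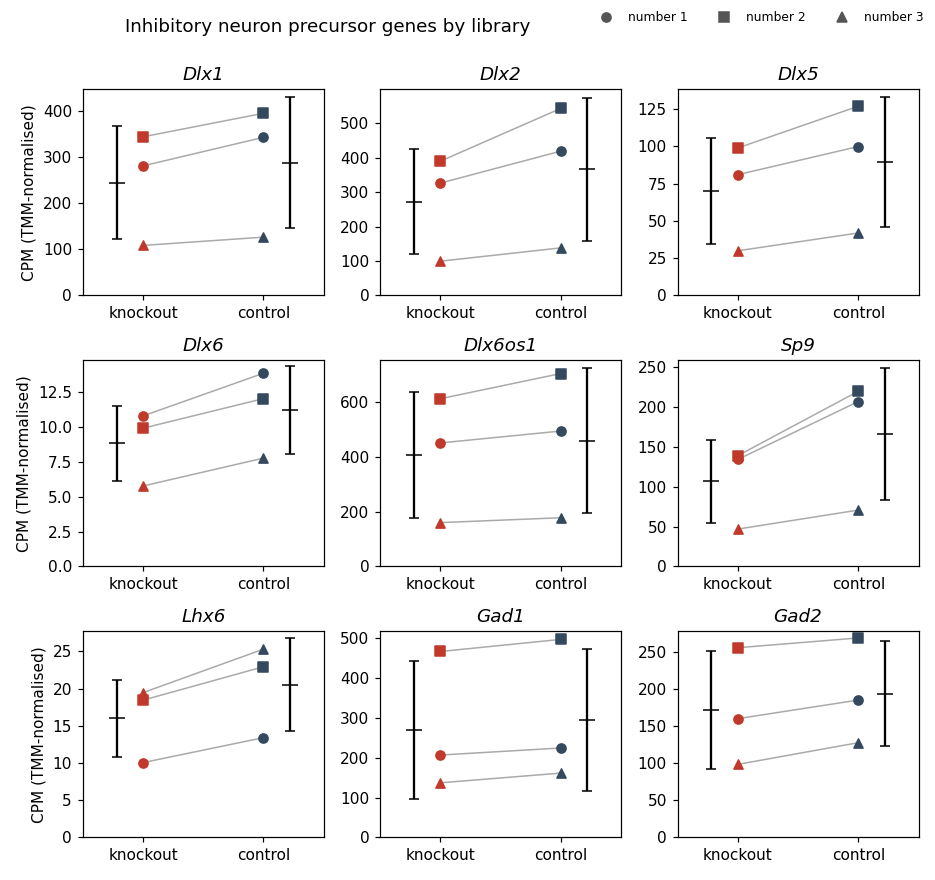
TMM-normalised CPM of the 9 genes in knockout (left) and control (right) libraries, with a marker for each replicate number, grey lines that join libraries of the same number, and black bars for the mean and SD of 3 libraries. In each number the knockout point lies below the control point, while the groups overlap for all 9 genes.

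Dlx2, which with Dlx1 opens the DLX programme, had 326, 390 and 99.6 CPM in knockout libraries 1, 2 and 3, against 419, 543 and 138 CPM in control libraries 1, 2 and 3. Both libraries numbered 3 were low and both numbered 2 high, and the control library numbered 3 lay below the knockout libraries numbered 1 and 2. Its log2 fold change was -0.43 (SE 0.63), and -0.44 (SE 0.04) with the block. The knockout library stood at 77.8%, 71.8% and 72.1% of the control library of the same number.

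Dlx1 had 280, 343 and 108 CPM in knockout libraries, against 342, 394 and 126 CPM in control libraries, in the same order of numbers. Within each group the order of the libraries was that of Dlx2. The genotype difference was smaller, with a log2 fold change of -0.24 (SE 0.54), and -0.24 (SE 0.04) with the block. Per kilobase of exon, Dlx1 made up 31.3%, 31.8% and 36.5% of the sum of Dlx1 and Dlx2 in knockout libraries and 30.2%, 27.7% and 32.6% in control libraries. Its share was thus higher in the knockout library of each number. The antisense gene Dlx1as runs over Dlx1 on the other strand and shares 335 exon bases with it, 6.21% of the exon length of Dlx1, and whether the counting used strand is not stated. Dlx1as had 69.4, 54.3 and 19.2 CPM in knockout libraries, against 73.9, 55.6 and 23.2 CPM in control libraries, and the blocked difference of -0.13 on the log2 scale missed the threshold (SE 0.07; edgeR adjusted p = 0.407).

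Dlx5, of the second DLX pair, had 81.0, 98.9 and 30.0 CPM in knockout libraries, against 99.8, 127 and 41.9 CPM in control libraries. Levels followed those of Dlx1 and Dlx2 from library to library. The log2 fold change was -0.36 (SE 0.53), and -0.38 (SE 0.06) with the block.

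Dlx6 was far lower, at 10.8, 9.93 and 5.78 CPM in knockout libraries, against 13.9, 12.1 and 7.78 CPM in control libraries, from between 153 and 376 counts. Here number 1 and not number 2 was highest in both groups, and the spread over numbers was smaller than for its neighbour Dlx5. Its log2 fold change of -0.35 (SE 0.33), and -0.35 (SE 0.13) with the block, had the largest error of the 9 genes in the blocked fit.

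Dlx6os1, a long non-coding RNA also known as Evf2 that in the mouse regulates Dlx5, Dlx6 and Gad1, was the most abundant of the 9 genes in CPM. It had 450, 611 and 160 CPM in knockout libraries, against 494, 703 and 178 CPM in control libraries. The difference was among the smallest, with a log2 fold change of -0.17 (SE 0.61), and -0.16 (SE 0.04) with the block. Knockout libraries held 41.6, 61.6 and 27.6 counts of Dlx6os1 per count of Dlx6, against 35.6, 58.3 and 22.8 in control libraries. Dlx6os1 spans Dlx6 on the opposite strand, but the annotated exons of the 2 genes share 0 bases.

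Sp9, a zinc finger factor that in the mouse works with DLX factors in striatal and cortical inhibitory neuron precursors, had 134, 139 and 46.9 CPM in knockout libraries, against 207, 220 and 70.7 CPM in control libraries. Both of the knockout libraries numbered 1 and 2 lay below both control libraries of these numbers, and all were above the libraries numbered 3. Its log2 fold change was -0.64 (SE 0.54), and -0.63 (SE 0.04) with the block. In each number its log2 difference, of -0.62, -0.66 and -0.59, was below that of each of the other 8 genes.

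Lhx6, a LIM homeobox gene of inhibitory neurons that arise in the medial ganglionic eminence, had 10.1, 18.4 and 19.5 CPM in knockout libraries, against 13.4, 22.9 and 25.3 CPM in control libraries. It alone among the 9 genes was highest in number 3 and lowest in number 1. The log2 fold change was -0.36 (SE 0.34), and -0.37 (SE 0.10) with the block.

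Gad1, which encodes the larger form of glutamate decarboxylase, had 207, 466 and 137 CPM in knockout libraries, against 224, 497 and 161 CPM in control libraries. Number 2 stood well above the others in both groups, and the log2 fold change was -0.12 (SE 0.57), and -0.15 (SE 0.04) with the block. Gad2, which encodes the smaller form, had 160, 255 and 98.3 CPM in knockout libraries, against 185, 268 and 128 CPM in control libraries. Its log2 fold change was -0.18 (SE 0.40), and -0.22 (SE 0.05) with the block, and its 3 numbers differed, at -0.21, -0.07 and -0.38. Gad1 and Gad2 transcripts were thus closer to control levels than those of Dlx2 and Sp9. They were not set apart from all other members. With the block Dlx6os1, at -0.16, lay between Gad1 and Gad2, and Dlx1, at -0.24, lay close to Gad2. These differences between genes were not tested.

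**Figure D2:**
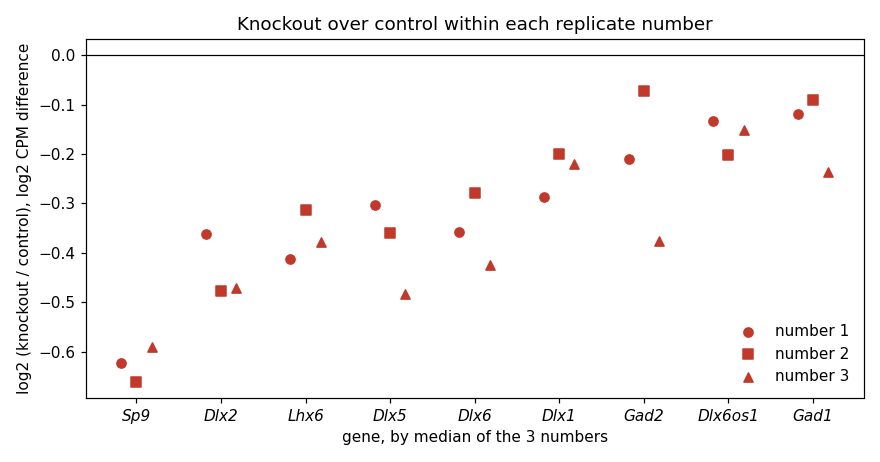
Difference in log2 CPM, knockout minus control, for each of the 9 genes within replicate numbers 1, 2 and 3 (markers), with genes ordered along the x axis by their median. All 27 differences lie below 0, from -0.66 for Sp9 in number 2 to -0.07 for Gad2 in number 2.

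To set the genes beside one another, levels were divided by exon length. In this unit Dlx2 was highest, at 95.2 ± 53.5 CPM per kilobase in knockout and 128 ± 72.7 in control libraries (SD, n = 3 each), then Dlx6os1 at 78.7 ± 44.2 and 88.6 ± 51.2, and Dlx1 at 45.2 ± 22.5 and 53.3 ± 26.3. Dlx5 at 30.9 ± 15.8 and 39.6 ± 19.2, Gad1 at 35.3 ± 22.7 and 38.5 ± 23.3, Gad2 at 29.1 ± 13.5 and 32.9 ± 12.1, and Sp9 at 21.2 ± 10.3 and 32.9 ± 16.4 lay close together. Dlx6 at 3.72 ± 1.13 and 4.73 ± 1.32 and Lhx6 at 3.33 ± 1.07 and 4.28 ± 1.31 were lowest. Neighbours in this order differed by less than the larger of their 2 SDs in both groups, except Sp9 and Dlx6. Within single libraries the order of Dlx2 over Dlx6os1, Dlx6os1 over Dlx1 and Dlx1 over Dlx5 held in 6 of 6 libraries, whereas Dlx5 was above Gad1 in 2 and Gad1 above Gad2 in 3.

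The sequences before 3 start sites are printed here: Dlx2 and Sp9 because they lay furthest from control levels, and Dlx6os1 because it was abundant and lay close to control. They are taken from RefSeq on GRCm38.p6 and written 5′ to 3′ on the strand of the gene, ending just before the start site, within 249 or 250 bases that hold no annotated exon; the Dlx6os1 site is one of 2 that RefSeq lists inside the gene. Capitals mark TAATTA, the core letters bound by DLX and many other homeodomain proteins, and GGGCGG or its reverse complement CCGCCC, the letters bound by SP-type zinc finger proteins.
Dlx2, chr2:71546755-71547004, minus strand: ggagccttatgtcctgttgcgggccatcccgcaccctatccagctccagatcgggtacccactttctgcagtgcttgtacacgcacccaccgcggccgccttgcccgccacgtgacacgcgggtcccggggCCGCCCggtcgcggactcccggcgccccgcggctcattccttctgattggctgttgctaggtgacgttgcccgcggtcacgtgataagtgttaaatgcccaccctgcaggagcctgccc
Sp9, chr2:73271676-73271924, plus strand: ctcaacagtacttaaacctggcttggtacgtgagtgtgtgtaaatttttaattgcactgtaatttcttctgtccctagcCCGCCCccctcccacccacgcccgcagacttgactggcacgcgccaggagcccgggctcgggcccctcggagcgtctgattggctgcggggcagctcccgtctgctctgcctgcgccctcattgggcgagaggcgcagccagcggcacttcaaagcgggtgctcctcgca
Dlx6os1, chr6:6861684-6861933, minus strand: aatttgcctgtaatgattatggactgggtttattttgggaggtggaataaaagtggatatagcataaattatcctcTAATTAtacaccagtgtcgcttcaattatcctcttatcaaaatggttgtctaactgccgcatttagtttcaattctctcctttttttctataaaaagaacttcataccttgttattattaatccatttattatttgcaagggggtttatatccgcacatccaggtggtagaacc

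Both strands were searched in 10 windows of 250 bases for the 7 members that the promoter table holds, before the Sp9 window was shortened by 1 base that an annotated exon covers. TAATTA was found in both windows of Dlx6os1, once and 2 times, and in none of the windows of Dlx1, Dlx2, Gad1, Gad2, Lhx6 and Sp9. Over 32851 windows of all genes 4.84% held it. GGGCGG was found in the windows of Dlx2, Sp9 and Gad1 and in 2 of the 3 windows of Lhx6, against 32.7% of all windows. The Dlx6os1 windows were AT-rich, at 34.0% and 33.2% GC, with a median of 52.4% over all windows. The Dlx2 and Sp9 windows were GC-rich at 66.4% and 62.4%, as were those of Dlx1 at 68.0%, Gad2 at 64.0% and Gad1 at 58.0%. Those of Lhx6 ranged from 46.0% to 61.6%. The windows of Dlx1, Gad1 and Gad2, and 1 window each of Lhx6 and Dlx6os1, overlap annotated exons of the gene itself. A match describes the letters only.

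Differences between replicate numbers, which do not use the genotype contrast, were large for these genes. An edgeR F test of the number, adjusted over all genes, called 9 of 9 members, where 51.2% of tested genes were called. That test shares its residual spread with the blocked genotype fit, and the members were chosen on these libraries. The count and its p-values are therefore a description. The largest difference between any 2 numbers had a median of 1.65 on the log2 scale over the 9 genes and of 0.45 over all tested genes. The log2 difference of number 3 from number 2 was -1.97 for Dlx2 (edgeR adjusted p of the number = 9.21e-08) and -1.60 for Sp9 (edgeR adjusted p = 1.94e-07). From number 1, number 3 differed by 0.93 for Lhx6 (edgeR adjusted p = 0.000361) and by -1.66 for Dlx2. Dlx2 accordingly stood at 32.5, 21.1 and 5.12 times the CPM of Lhx6 in knockout libraries 1, 2 and 3, and at 31.3, 23.7 and 5.46 times in control libraries. Number 2 differed from number 1 by 1.16 for Gad1 (edgeR adjusted p = 9.37e-08) and by 0.32 for Dlx2. What a number marks is not given in the labels.

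**Figure D3:**
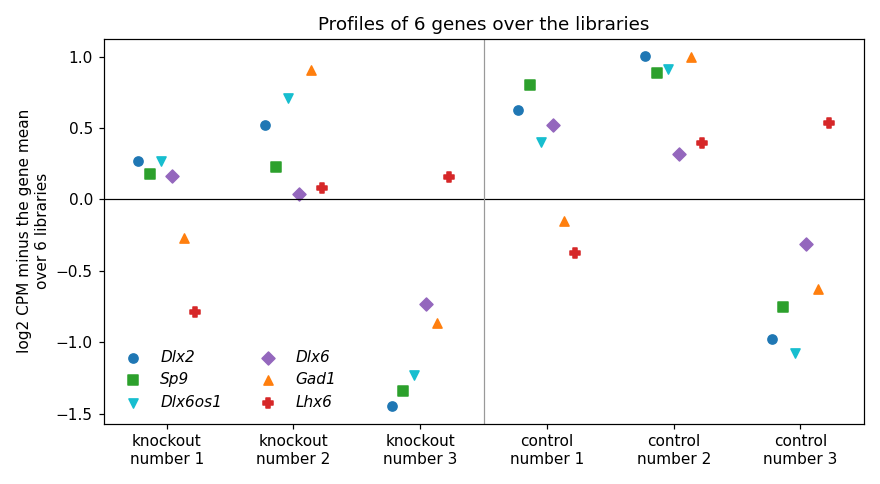
Log2 CPM of Dlx2, Sp9, Dlx6os1, Dlx6, Gad1 and Lhx6 minus the gene's own mean over the 6 libraries, for knockout libraries 1 to 3 (left) and control libraries 1 to 3 (right). Dlx2, Sp9 and Dlx6os1 are lowest in number 3 of both groups. Gad1 in number 2 lies well above its own level in numbers 1 and 3, and Lhx6 is lowest in number 1.

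Genes with the profile most like that of the DLX genes were ranked by the root mean square difference of centred log2 CPM from the mean profile of Dlx1, Dlx2, Dlx5 and Dlx6 over the 6 libraries, among 11615 other genes whose mean reached 5 CPM. Among the nearest were Cdca7 at 0.11, Zbtb40 and Arl4d at 0.14, Grik3, a kainate receptor subunit gene, at 0.14, Sel1l3 at 0.14, Gtse1 at 0.15 and Asf1b at 0.15. The median over the genes compared was 0.71. By the same measure Sp9 stood at 0.17, Dlx6os1 at 0.22, Gad2 at 0.30, Gad1 at 0.44 and Lhx6 at 0.95. The DLX genes that made up the mean profile differed too, with Dlx5 at 0.08, Dlx1 at 0.09, Dlx2 at 0.21 and Dlx6 at 0.33. The 7 genes from Cdca7 to Asf1b were picked on the same libraries as the genotype contrast, so that contrast is not tested on them, and with the block their log2 differences ranged from -0.26 for Sel1l3 to -0.08 for Grik3.

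Related genes outside the 9 were described from lists of genes that were written with earlier results of these data known. Without the block edgeR called 0 genes in each list. With the block it called 2.23% of all tested genes as lower and 1.57% as higher. Of 29 regulators of ventral forebrain progenitors, 5 fell with the block, 0 rose and 24 did not pass, where 3.8% of all tested genes were called in either direction, and the median log2 fold change was -0.13. Sp8, the paralog of Sp9, had 222, 279 and 46.6 CPM in knockout libraries, against 266, 341 and 67.4 CPM in control libraries, and fell by 0.35 in log2 units (SE 0.05, edgeR adjusted p = 0.0105). Gsx1, a homeobox gene of ventral progenitors, fell by 0.58 (SE 0.11, edgeR adjusted p = 0.0273). Vax1, which fell by 0.51, and Lmo1, which fell by 0.46, were named after their values were seen. Gsx1 and Vax1 were not called after correction for GC content (edgeR adjusted p 0.0797 and 0.0932), and Gsx1, Vax1 and Lmo1 each lost the call on leaving out at least 2 of the 3 numbers in turn. The list had 2 calls without number 1 and 3 without number 3.

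Of 30 tested genes of migrating and maturing inhibitory neurons, 2 fell with the block, 0 rose and 28 did not pass, with a median of -0.09. Nr2f1, a nuclear receptor gene, fell by 0.27 (SE 0.06, edgeR adjusted p = 0.0308), and after GC correction stood at -0.14 (edgeR adjusted p = 0.233), nor was it called without any one of the numbers (edgeR adjusted p 0.111, 0.0589 and 0.0548). Cux2, the next by p, was at -0.24 (SE 0.06, edgeR adjusted p = 0.0756).

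Of 15 tested genes of GABA transport and metabolism beyond the members, 1 rose with the block, 1 fell and 13 did not pass, with a median of 0.09. With library totals or upper quartile scaling 2 rose and 0 fell. Slc32a1, which encodes the transporter that loads GABA into vesicles, had 41.6, 75.3 and 32.4 CPM in knockout libraries, against 48.0, 99.7 and 38.6 CPM in control libraries. It fell by 0.29 (SE 0.07, edgeR adjusted p = 0.0456), and was not called after GC correction (-0.15, edgeR adjusted p = 0.302) or without any one of the numbers (edgeR adjusted p 0.0657, 0.268 and 0.103). Slc38a5, an amino acid transporter gene that is also high in brain endothelium, rose by 1.79 (SE 0.26, edgeR adjusted p = 0.0104), but was not called once number 3 was left out (edgeR adjusted p = 0.125). Slc6a11, the GABA transporter gene of astrocytes, was at 0.19 (SE 0.05, edgeR adjusted p = 0.0585), and passed with library totals (0.22, edgeR adjusted p = 0.0437). Among further DLX genes Dlx4 had 0.982 to 3.13 CPM in knockout and 0.637 to 3.47 CPM in control libraries (a blocked difference of 0.57 on the log2 scale with SE 0.37; edgeR adjusted p = 0.480), and Dlx3, with 0, 1 and 4 counts in knockout and 0, 0 and 1 in control libraries, was not tested.

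Olig2, the lineage factor after which the Cre driver is named, had 342, 94.5 and 115 CPM in knockout libraries, against 360, 180 and 166 CPM in control libraries. With the block it differed by -0.50 (SE 0.12) and missed the threshold (edgeR adjusted p = 0.0533), though it passed when number 1 was left out (edgeR adjusted p = 0.000501) and with no filter (0.00366). Olig2 was highest in number 1 of both groups.

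Some genes of other neurons fell as well. Of 22 tested genes of the excitatory lineage 5 fell with the block, 0 rose and 17 did not pass, with a median of -0.22. Neurod2, a factor of excitatory neurons, had 18.4, 43.1 and 142 CPM in knockout libraries, against 34.7, 63.3 and 220 CPM in control libraries, and fell by 0.69 (SE 0.07, edgeR adjusted p = 0.00272). Its level was highest in number 3, where the DLX genes were lowest. Bhlhe22 fell by 0.54 (SE 0.07, edgeR adjusted p = 0.00606) and Lhx2, shared with progenitors, by 0.22 (SE 0.04, edgeR adjusted p = 0.0262). Lhx2 was not called without number 1 or 3 (edgeR adjusted p 0.0933 and 0.125) or after GC correction. Tbr1 and Zbtb18, named after their values were seen, complete the 5, at -0.44 and -0.22. Leaving out number 1 or 3 left 2 calls in this list in either case.

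Of 27 general neuron markers 7 fell with the block, 0 rose and 20 did not pass, with a median of -0.14. Elavl3, a neuronal RNA-binding protein gene, was at -0.28 (SE 0.04, edgeR adjusted p = 0.00705), Uchl1 at -0.30 (SE 0.05, edgeR adjusted p = 0.0123) and Stmn3 at -0.26 (SE 0.05, edgeR adjusted p = 0.0206). After GC correction 4 of the 27 were called as lower, with library totals 3, without number 1 there were 2 and without number 3 there was 1. Uchl1 was not called without number 3 (edgeR adjusted p = 0.101), and Stmn3 neither without it (0.0604) nor without number 1 (0.0554). The summed CPM of the 27 markers in the knockout library was 87.9%, 93.1% and 90.1% of that in the control library of the same number. For the listed excitatory genes the sum was at 81.5%, 92.5% and 89.5%, and for all 9 members at 83.1%, 83.7% and 80.4%. That of Dlx1, Dlx2, Dlx5 and Dlx6 alone was at 79.8%, 78.2% and 77.6%. Those 4 DLX genes equalled 10.5%, 8.87% and 2.94% of the marker sum in knockout libraries, against 11.5%, 10.6% and 3.42% in control libraries. The members were chosen by their values in this contrast, so their lower ratios support nothing. The part of the general neuron markers in the DLX difference was not tested.

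Markers of some non-neuronal cells were higher in the same libraries. All 14 endothelial markers were higher in the knockout library of each number, as were 19.6% of all tested genes. With the block 11 of the 14 rose, where 1.57% of all tested genes were called as higher. The 14 markers summed to between 61.7 and 415 CPM in knockout and between 26.7 and 134 CPM in control libraries. Of 10 choroid plexus and ependymal markers 6 rose, with sums of 836 to 2767 CPM in knockout and 362 to 1889 CPM in control libraries. Of 15 astrocyte markers 5 rose, with sums of 2631 to 4823 and 2270 to 4114 CPM. Without number 3, 5 endothelial and 2 choroid plexus and ependymal markers were called. Of 19 OPC and 12 microglia markers edgeR called 0 with the block. Other settings with the block called 4 OPC markers without number 1 and 2 with no filter. Olig2 was among the calls in both of these settings, as lower (-0.72 and -0.51). DESeq2 and limma-voom each called 1 OPC marker, and after GC correction 1 was called as higher. No marker of these lists was at 0 in all libraries, and their part in the differences of the 9 genes was not tested.

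**Figure D4:**
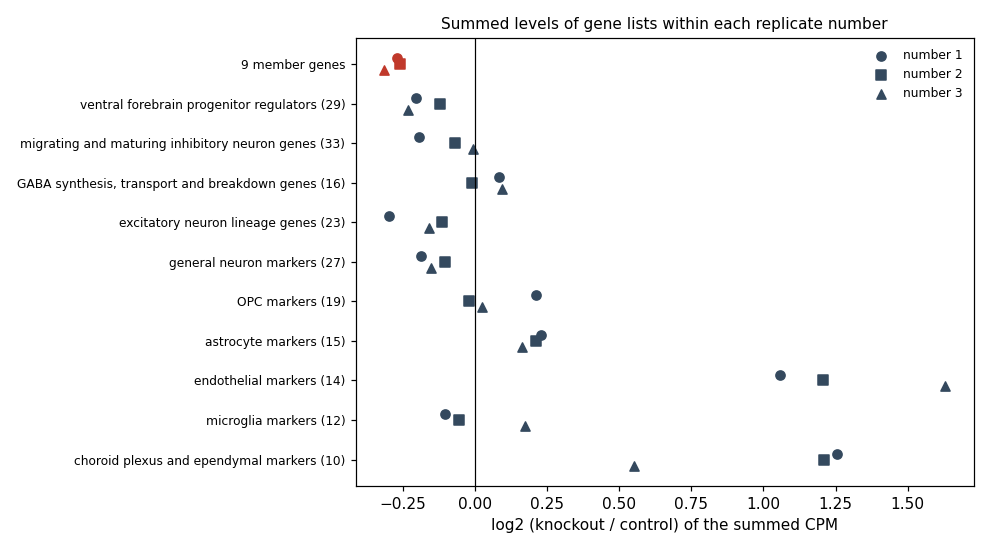
Log2 ratio of summed CPM, knockout over control, within replicate numbers 1, 2 and 3 (markers), for the 9 genes (red, top row) and for 10 gene lists (dark), with the number of listed genes in brackets. The 9 genes, the progenitor regulators, the migrating inhibitory neuron genes and the excitatory and general neuron lists lie below 0 in all 3 numbers, and astrocyte, endothelial and choroid plexus markers above it. In number 3 the sums of the migrating inhibitory neuron genes were nearly equal, at 1904 CPM in knockout and 1910 CPM in control.

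On the genome, 6 of the 9 genes lie on chromosome 2, as Prrc2b does (GRCm38, GENCODE M21). Prrc2b spans 32151082 to 32234537, Lhx6 lies 3.85 Mb from it (36081953 to 36105408, minus strand) and Gad2 9.46 Mb from it (22622205 to 22693874, plus strand). Gad1 (70553072 to 70602014, plus), Dlx1 (71528113 to 71533981, plus), Dlx2 (71543408 to 71546754, minus) and Sp9 (73271925 to 73284706, plus) lie 38.3 to 41.0 Mb away. Dlx6os1 (6820189 to 6871592, minus), Dlx6 (6863334 to 6868568, plus) and Dlx5 (6877805 to 6882085, minus) are on chromosome 6. Of 1211 tested genes of chromosome 2 with a gene model, 26 rose and 29 fell with the block (2.39% lower), and the median log2 fold change was 0.01.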

How the data were processed

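Poly(A) RNA was sequenced as stranded paired-end libraries, per the labels' protocols. The deposited values are raw counts per gene symbol, 1 library per table, not normalised. Tools named in the submitters' processing notes, without roles, are DESeq2 1.26.0, HTSeq 0.12.4 and HISAT2 2.2.1, with the build mm10. Annotation and strand setting were not given in these sources. The 5 summary entries at the end of each table, 27.7% to 31.1% of its total, were left out.

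Groups came from the genotypes in the labels. Counts were scaled by TMM, filtered with filterByExpr and fitted in edgeR 4.0.16 with its quasi-likelihood F test (R 4.3.3, two-sided, Benjamini-Hochberg over 15906 genes, calls at adjusted p under 0.05). SEs are the log2 fold change over the square root of F. The replicate number was added as a block beside this. Over all tested genes, deviations from the group means had correlations of 0.712, 0.682 and 0.654 for equal numbers, which were therefore treated as pairs. Correlations for unequal numbers were negative, which centring on the group means largely builds in. Residual degrees of freedom were 4 without and 2 with the block. The F test of the number was added after the data were seen. Gene models, lengths and GC content came from GENCODE M21, with GC content for 15332 tested genes.

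Named genes were the members, Prrc2b, Olig2, up to 3 genes per list by smallest blocked p (6 lists, mean of at least 1 CPM), and 8 genes by likeness, without predicted models. Members, lists and rules were chosen with earlier results of these data known. Alternatives were other scalings, filters, DESeq2 1.42.0, limma-voom (limma 3.58.1), left-out libraries and a GC correction in 20 bins. Some genes that these rules name are not reported here.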

Additional observations from a re-analysis of the deposited data

How the results depend on the processing

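Without the replicate block edgeR called 0 genes under each scaling, filter and left-out library, as did limma-voom, and DESeq2 called 20. With the block 604 genes were called, 573 with DESeq2 size factors, 502 with library totals, 536 with upper quartile scaling, 1034 without a filter, 435 at a mean of at least 5 CPM, 680 with DESeq2, 712 with limma-voom and 395 after GC correction. With library totals 271 rose and 231 fell, against 250 and 354 with TMM. Leaving out a pair gave 444 calls without number 1, 521 without number 2 and 174 without number 3. The median log2 fold change of the 9 genes stayed between -0.36 and -0.33 in the block settings with all libraries. It was -0.59 to 0.0072 with 1 library left out and no block, since that removes 1 library of a pair (0.0072 without knockout library 3, -0.02 without control library 2), and -0.39 to -0.32 with a pair left out. With the block all 9 fold changes were negative in every setting run, and between 3 and 7 members were called, counts that support nothing since the members were chosen on this contrast. Sign changes came only with a library left out and no block. Among members these were Gad1 (-0.78 to 0.48), Dlx6os1 (-0.59 to 0.28), Gad2 (-0.59 to 0.13), Dlx1 (-0.59 to 0.12) and Dlx5 (-0.69 to 0.0072). For other genes the ranges over left-out libraries and pairs were -0.51 to 0.089 for Arl4d, -0.45 to 0.23 for Asf1b, -1.16 to 0.051 for Bhlhe22, -0.56 to 0.16 for Cdca7, -0.86 to 0.40 for Cux2, -0.47 to 0.28 for Dlx1as and -0.013 to 1.51 for Dlx4. They were -0.35 to 0.29 for Grik3, -1.29 to 0.094 for Gsx1, -0.43 to 0.18 for Gtse1, -1.79 to 0.47 for Neurod2, -1.17 to 0.093 for Olig2, -0.56 to 0.019 for Sel1l3, -0.75 to 0.20 for Slc32a1, -0.29 to 0.70 for Slc6a11, -0.74 to 0.16 for Sp8 and -0.49 to 0.18 for Zbtb40. Dlx6 and Lhx6 rest on 153 to 715 counts per library, which limits their precision.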
